A study of Mus musculus with 12 samples.

Results

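The genes described here encode the proteins of the cytosolic ribosome, the particle that translates messenger RNA outside the mitochondria. They were chosen by name only: every probe that was not a control and whose gene name in the scanner files was Rpl or Rps with a number and at most 1 further letter or x, y or l, or was Rplp0, Rplp1, Rplp2 or Rpsa, with the S6 kinase genes left out. This gave 81 genes on 185 probes, out of 35079 gene names on 55681 probes, with 50 genes of the large subunit (Rpl) and 31 of the small subunit (Rps). The name rule uses no measured value, though the set was proposed with earlier results of these data known. The name rule also took in Rpl3l, Rpl10l, Rpl39l and Rps27l, copies with a tissue-restricted or inducible pattern, and a gene that the files name Rpl22p.

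Each ribosome holds a single copy of nearly every one of these proteins, built around ribosomal RNA, and the genes are known for near equal output and for moving together. Their mRNAs carry a run of pyrimidines at the very start, the 5′ terminal oligopyrimidine or TOP tract, through which the growth kinase mTORC1 and the RNA-binding protein Larp1 control their translation and stability. Some of the proteins have further roles. Rpl5 and Rpl11 restrain the p53 regulator Mdm2 when they are not built into ribosomes, Rps6 is the classical substrate of S6 kinase, and human RPL13A joins a complex that silences inflammatory mRNAs in interferon-treated macrophage-like cells. A few members have a paralogue used in one tissue: Rpl3l in striated muscle, and Rpl10l and Rpl39l in male germ cells.

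The probes of 3 such copies are shown because later results rest on telling a copy from its partner. The coordinates are those in the files (mm9), each probe has 60 bases, and capitals mark the longest run shared with any probe of the partner gene on the array, whether or not it has a meaning. The probe of Rpl39l maps to chr16:10174657-10174716 (plus strand) and its last 30 bases are printed, sharing at most 7 bases with the Rpl39 probes. The probe of Rpl39 lies between chrX:34622696-34623990 (minus strand), that of Rps27l between chr9:66795486-66797176 (plus strand), and that of Rpl10l at chr12:67384868-67384927 (minus strand). Intervals longer than the probe span an intron.
Rpl39l: agTAATAAAtatgtgaaaccttttgtttcg
Rpl39: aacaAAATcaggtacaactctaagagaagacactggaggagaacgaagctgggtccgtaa
Rps27l: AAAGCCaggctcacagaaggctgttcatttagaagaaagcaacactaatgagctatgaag
Rpl10l: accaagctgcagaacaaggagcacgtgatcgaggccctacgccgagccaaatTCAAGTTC
The longest run shared with a partner's probe was 6 bases for Rps27l (partner Rps27) and 8 bases for Rpl10l (partner Rpl10). Probes were compared with probes only, so whether a copy's probe also reads its partner's transcript was not tested.

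Start sites are shown because the TOP tract lies there, and no run was compared with a member's difference. RefSeq promoter windows (GRCm38.p6) were found for 60 of the 81 members. The printed stretches run from 30 bases before to 20 after the annotated start, and capitals mark the longest run of at least 8 C or T that touches no other base, searched on the gene's strand between 10 bases before and 20 after the start. The windows lie at chr7:45128726-45128775 (minus strand) for Rpl13a, chr11:114668550-114668599 (plus) for Rpl38, chr4:86857348-86857397 (minus) for Rps6, chrX:37085203-37085252 (minus) for Rpl39 and chr16:10170198-10170247 (plus) for Rpl39l.
Rpl13a: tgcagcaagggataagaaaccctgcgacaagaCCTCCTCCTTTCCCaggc
Rpl38: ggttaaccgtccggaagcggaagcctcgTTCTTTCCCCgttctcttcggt
Rps6: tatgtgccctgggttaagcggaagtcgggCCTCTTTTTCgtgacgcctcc
Rpl39: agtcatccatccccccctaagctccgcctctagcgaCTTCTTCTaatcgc
Rpl39l: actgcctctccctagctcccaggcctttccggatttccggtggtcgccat
Such a run was present in 23 of the 60 members (38.3%) and in 3517 of 27025 genes with a window (13.0%). The searched part of the Rpl39l window, from 10 bases before to 20 after the start, held none of that length. A run of these letters is a description of the window and not a mapped TOP tract.

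The study asked what the lipid-droplet cofactor ABHD5 does in macrophages and in the tumour cells they act on. Total RNA of 12 mouse samples was read on 1-colour arrays, 3 samples in each of 4 groups: RAW264.7 cells (a macrophage-like line) carrying a short hairpin RNA against ABHD5, RAW264.7 cells with the empty PLKO vector, CT-26 cells (a colon carcinoma line) primed by knockdown RAW264.7 cells, and CT-26 cells primed by control RAW264.7 cells. The labels do not say how cells were primed, whether CT-26 cells were freed of RAW264.7 cells, whether the lines were clones, or whether the 3 samples of a group were separate cultures. The p-values therefore measure only the spread between these samples.

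Abhd5 had levels of 0.25, 0.23 and 0.39 in knockdown RAW264.7 cells, against 1.38, 1.93 and 1.52 in control RAW264.7 cells, a log2 difference of -1.32 ± 0.20 (SE; limma, adjusted p = 0.00346) in the direction the labels give. All levels are log2 of the processed signal minus the array's 75th percentile. All 13 macrophage markers were above background on every array of both RAW264.7 groups, and their summed level (log2) was 8.36 to 8.52 in knockdown and 8.31 to 8.50 in control cells. Single markers differed, with means of 3.32 in knockdown and 0.46 in control cells for Adgre1 and of 5.54 and 3.66 in the same groups for Lyz2. On all 3 arrays, 7 of 10 epithelial markers were above background in knockdown cells, against 3 of 10 in control cells. Their summed level was 0.56 to 0.66 in knockdown and 0.89 to 1.44 in control cells, and Cdx2 was above background on 0 arrays of either group. The part of these markers in the differences was not tested. Of the macrophage markers, 8 of 13 were above background on all 3 arrays in knockdown-primed and 9 of 13 in control-primed CT-26 cells. Their summed level was 5.84 to 6.23 in knockdown-primed and 5.79 to 5.93 in control-primed cells. Adgre1 and Spi1 were above background on 0 CT-26 arrays, whereas Itgam had means of 5.77 in knockdown-primed and 5.60 in control-primed cells. The CT-26 arrays had 6 of 10 epithelial markers in either group, with Cdh1 and Vil1 on 0 arrays, and 5 of 6 fibroblast markers. Slide 1 held control RAW264.7 replicates 1 and 2, control replicate 3 shared slide 2 with the 3 knockdown arrays, and the CT-26 arrays were all on slide 3. On every one of the 12 arrays 176 of the 185 probes stood well above background, and none was saturated. Over all genes above background in some group, replicate arrays of a group correlated at 0.979 to 0.995, as a description.

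In ABHD5-knockdown RAW264.7 cells the ribosomal protein genes lay lower as a block when arrays were scaled to their 75th percentile. The log2 difference was below 0 for 79 of the 80 tested genes, with a median of -0.51 (quartiles -0.59 and -0.45), against a median of -0.30 over all genes tested. The median was -0.50 for 49 large-subunit genes and -0.52 for 31 small-subunit genes. The threshold (adjusted p under 0.05 over all genes) was passed by 10 of the 80, 9 lower and 1 higher. Over all 25460 genes tested, 22.8% passed, 14.8% lower and 7.94% higher, so the members' share was below the background. In such RNA from whole cultures, fewer cells of a type and less RNA per cell cannot be told apart.

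The array medians of the members show how this block depends on scaling. Scaled to the 75th percentile, the members' median was 5.34, 5.56 and 5.45 in knockdown RAW264.7 cells, against 5.77, 6.21 and 5.93 in control RAW264.7 cells. The groups did not overlap. Without scaling, the median was 17.14 ± 0.02 in knockdown and 17.12 ± 0.18 in control RAW264.7 cells (SD, n = 3 each), so the members' own signals overlapped between the groups. The 75th percentile was 11.69 ± 0.12 in knockdown and 11.15 ± 0.39 in control RAW264.7 cells, and its part in the members' difference was not tested. After quantile normalisation the medians were 17.09 ± 0.04 in knockdown and 17.11 ± 0.05 in control cells.

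**Figure D1:**
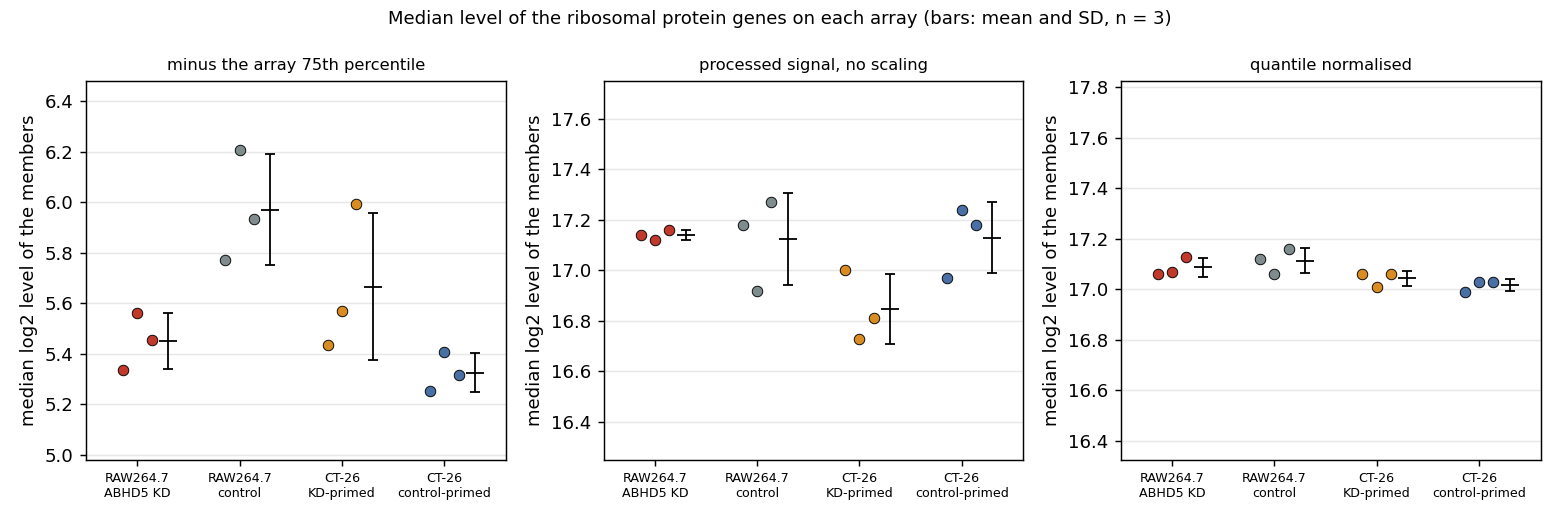
Median log2 level of the ribosomal protein genes on each of the 12 arrays, by group, scaled to the array's 75th percentile (left), unscaled (middle) and after quantile normalisation (right); each point is 1 array and the bar is the group mean. In the left panel the knockdown RAW264.7 arrays (5.34 to 5.56) lie below the control RAW264.7 arrays (5.77 to 6.21), and in the right panel the 2 groups overlap.

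On quantile-normalised values the members' median log2 difference was -0.04, against -0.08 over all genes, and 54 of 80 were below 0. On the probe chosen for each gene, only Rpl10l (lower) and Rpl3l (higher) passed the threshold, 2 of 80 against 15.9% of all genes (7.34% lower and 8.59% higher). Dimmer probes of Rpl22 (-1.37) and Rpl14 (-0.62) also passed after quantile normalisation (limma, adjusted p over all probes = 0.0168 and 0.0446). The chosen probes of these genes gave -0.17 and -0.04. Knockdown and control arrays did not overlap for 67 genes lower in knockdown cells and 1 higher with 75th-percentile scaling, beside 39.5% and 12.5% of all genes. After quantile normalisation these counts were 9 and 4, beside 26.0% and 17.4%. The brightness of the probes goes with this: 78 of the 80 lay among the brightest 20% of tested probes, and that bin as a whole had a median difference of -0.39 with 75th-percentile scaling and -0.03 after quantile normalisation. A probe's brightness depends on its sequence as well as its transcript, so this ranks signals only.

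Slide and single arrays also bore on the count. With slide as a block, 0 of 80 passed (4 at an unadjusted p under 0.05, limma) with a median of -0.45, and the share over all genes was 4.58%, against 22.8% without the block. Within slide 2 alone 1 passed, Rps3, beside 7.34% of all genes. The count was 1 without control replicate 1 (10.9% of all genes), 1 without knockdown replicate 2 (7.73%), and 0 without knockdown replicate 1 (10.5%) or 3 (6.65%), with 16 and 17 at an unadjusted p under 0.05. It was 10 without control replicate 2 (20.7%) and 12 without control replicate 3 (29.0%). In each of these fits that lowered the members' count, the share over all genes was also lower. With the normexp background correction the count was 7, beside a higher share of 26.3% of all genes. The share of spots well above background was 69.0% to 73.0% on knockdown arrays, against 56.5% and 57.9% on the slide 1 controls and 72.7% on the slide 2 control, and its part in the differences was not tested.

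Among core small-subunit proteins, Rps3, which lines the channel where mRNA enters, fell most. Its levels were 4.88, 5.13 and 4.99 in knockdown RAW264.7 cells, against 5.70, 5.89 and 6.06 in control RAW264.7 cells, a log2 difference of -0.89 ± 0.18 (SE; limma, adjusted p = 0.0141). Every knockdown array was below every control array. After quantile normalisation the difference was -0.49 (adjusted p = 0.0942), and with slide as a block -1.06 (adjusted p = 0.0599). Its probe has no position in the files, and the other 2 Rps3 probes, on chromosome 7, gave -0.51 and -0.40.

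Rps2, a neighbour of Rps3 at the entry channel, had levels of 5.12, 5.27 and 5.16 in knockdown RAW264.7 cells, against 6.20, 6.06 and 5.70 in control RAW264.7 cells (-0.81 ± 0.19, limma adjusted p = 0.0235). Rps25, which several viral internal ribosome entry sites need, had 5.61, 5.69 and 5.52 in knockdown cells, against 6.09, 6.55 and 6.19 in control cells (-0.67 ± 0.19, limma adjusted p = 0.0387). In both genes the groups stayed apart. After quantile normalisation the differences were -0.40 and -0.23, and neither passed. The 2 Rps25 probes differed by 1.03 in this comparison, with the dimmer one above 0, so the Rps25 value holds for the brighter probe only.

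In the large subunit, Rpl38, whose loss in mice alters the axial skeleton, had levels of 5.28, 5.52 and 5.47 in knockdown RAW264.7 cells, against 5.99, 6.79 and 5.99 in control RAW264.7 cells (-0.84 ± 0.25, limma adjusted p = 0.0445). Control replicate 2 stood well above the other controls, and the difference ran from -0.97 to -0.57 when 1 array at a time was left out. Rpl36a, near the site where spent transfer RNA leaves, had 4.75, 5.07 and 4.80 in knockdown cells, against 5.49, 5.84 and 5.50 in control cells (-0.74 ± 0.19, limma adjusted p = 0.0309). Rpl3, which reaches to the peptidyl transferase centre, had 4.53, 4.65 and 4.42 in knockdown cells, against 5.04, 5.31 and 5.17 in control cells (-0.64 ± 0.18, limma adjusted p = 0.036). These 3 genes fell with 75th-percentile scaling, and none passed after quantile normalisation, where the values were -0.38, -0.32 and -0.22.

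**Figure D2:**
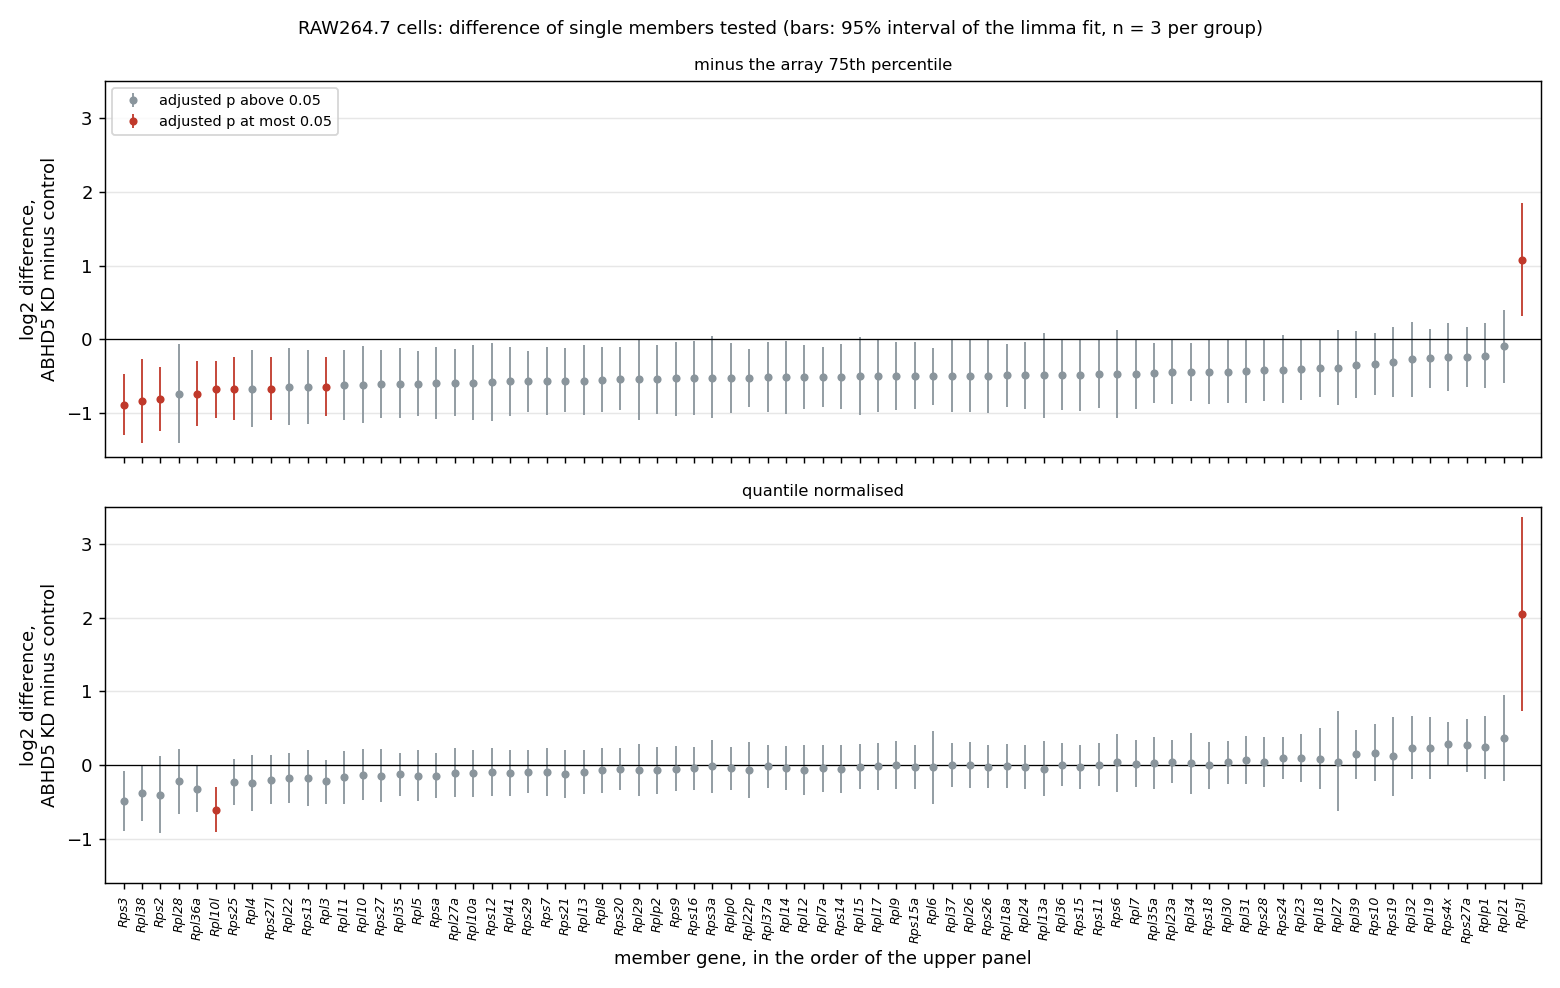
Log2 difference (knockdown minus control RAW264.7 cells) of the ribosomal protein genes tested, apart from a few not reported singly, each with its 95% confidence interval, under 75th-percentile scaling and after quantile normalisation. With the first scaling most genes lie near the median of -0.51, with Rps3 at -0.89 at the low end, and with the second they lie around -0.04, with Rpl10l at -0.60 and Rpl3l at 2.05 apart from the rest.

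Members with other known roles did not pass on the probe chosen for each gene. The stalk proteins, which bring elongation factors to the ribosome, differed by -0.52 ± 0.21 for Rplp0, -0.22 ± 0.19 for Rplp1 and -0.54 ± 0.20 for Rplp2 (limma, adjusted p = 0.0906, 0.394 and 0.0783). Rpl5 and Rpl11, which bind 5S ribosomal RNA, were at -0.60 and -0.62 (adjusted p = 0.0534 and 0.0596). Rps6 was at -0.47 (adjusted p = 0.197), Rpl13a at -0.49 with 2 usable knockdown arrays (0.158), and Rps19, mutated in human Diamond-Blackfan anaemia, at -0.31 (0.272). The other 2 Rpl13a probes, with every array usable, gave -0.61 and -0.59 (limma, adjusted p over all probes = 0.0491 and 0.0641). After quantile normalisation those probes gave -0.19 and -0.12. Rps27a, made as a fusion with ubiquitin, was at -0.24 (adjusted p = 0.311), and Rpsa, also known as the laminin receptor precursor, at -0.59 (0.0705). Rpl28 was at -0.74 with 2 usable knockdown arrays (adjusted p = 0.0893). Its probe maps to chromosome 4, whereas RefSeq places Rpl28 on chromosome 7. The Rpl28 probe on chromosome 7 gave -0.24, and 0.25 after quantile normalisation. After quantile normalisation these genes lay between -0.22 and 0.27.

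Among the copies, Rpl10l passed the threshold with both 75th-percentile scaling and quantile normalisation. This intronless germ-cell copy of Rpl10 had levels of -1.25, -1.11 and -1.28 in knockdown RAW264.7 cells, against -0.55, -0.46 and -0.61 in control RAW264.7 cells. It fell by 0.68 ± 0.17 on the log2 scale (SE; limma, adjusted p = 0.0268), and after quantile normalisation the difference was -0.60 (adjusted p = 0.0234). The groups were well apart, each within a narrow range. With median centring the difference was -0.44 and did not pass, and with 1 array at a time left out it passed in 2 of 6 fits (-0.73 to -0.64, adjusted p up to 0.123). Within slide 2 the difference was -0.61 (adjusted p = 0.0973), and its second probe gave -0.69 (0.133 over all probes). Rpl10, the partner that most tissues use, was at -0.62 with 75th-percentile scaling and -0.13 after quantile normalisation, past the threshold in neither.

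Rps27l, the p53-inducible copy of Rps27, had levels of 5.48, 5.49 and 5.33 in knockdown RAW264.7 cells, against 5.88, 6.32 and 6.10 in control RAW264.7 cells (-0.67 ± 0.19, limma adjusted p = 0.0379). It did not pass after quantile normalisation (-0.20), and Rps27 itself was at -0.61 (adjusted p = 0.0579). Rpl3l, the muscle copy of Rpl3, had dim levels of -5.93, -5.91 and -4.79 in knockdown RAW264.7 cells, against -6.93, -6.73 and -6.23 in control RAW264.7 cells (1.08 ± 0.34, limma adjusted p = 0.0491). It was above background on 3 knockdown arrays and 1 control array, and so entered the test only through the group where it was higher. With the normexp background correction the difference was 0.01, and within slide 2 it was 0.68.

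In CT-26 cells primed by knockdown RAW264.7 cells, most ribosomal protein genes lay slightly higher than in cells primed by control RAW264.7 cells, and 1 passed the threshold. With 75th-percentile scaling the log2 difference was above 0 for 70 of 80 genes, with a median of 0.31, against 0.11 over all genes tested. The gene that rose was Rpl37a, a zinc-binding protein of the large subunit, 1 of 80 against 6.37% of 24996 genes (3.15% higher and 3.21% lower). Its levels were 6.22, 6.15 and 6.57 in knockdown-primed cells, against 5.67, 5.63 and 5.66 in control-primed cells (0.66 ± 0.16, limma adjusted p = 0.0482). The groups did not overlap. After quantile normalisation the difference was 0.30 (adjusted p = 0.173). Its probe maps to chromosome 7, whereas RefSeq places Rpl37a on chromosome 1, and the Rpl37a probe on chromosome 1 gave 0.46.

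Here too the level of the members depended on the scaling. The members' median was 5.43, 5.57 and 5.99 in knockdown-primed cells, against 5.25, 5.41 and 5.32 in control-primed cells, with the third knockdown-primed array far above the rest. Unscaled, it was 16.85 ± 0.14 in knockdown-primed and 17.13 ± 0.14 in control-primed cells (SD, n = 3 each), the opposite order, while the 75th percentile was 11.18 ± 0.37 and 11.81 ± 0.08 in the same groups. After quantile normalisation the members' median difference was 0.02, against 0.05 over all genes, and 0 of 80 passed (3 at an unadjusted p under 0.05, limma), against 5.26% of all genes (2.58% higher and 2.68% lower). Groups did not overlap for 30 genes higher and 0 lower, beside 25.0% and 11.1% of all genes; after quantile normalisation for 8 and 8, beside 21.4% and 13.1%. The share of spots well above background was 59.3% to 67.0% on knockdown-primed and 68.3% to 77.3% on control-primed arrays, and its part in these differences was not tested. Without knockdown-primed replicate 1 the count was 6, beside 12.01% of all genes. Without any 1 of the other 5 arrays it was 0 (4 to 9 at an unadjusted p under 0.05), beside 0.376% to 5.75% of all genes. The members' median of 0.31 was 0.15 without knockdown-primed replicate 3.

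The genes next to Rpl37a in size were Rps15a at 0.64, Rpl27a at 0.58, Rps16 and Rps9 at 0.54 each and Rpl38 at 0.52 (limma, adjusted p between 0.0787 and 0.113). At the other end lay Rpl34, with levels of 5.21, 5.05 and 5.57 in knockdown-primed cells, against 5.45, 5.74 and 5.73 in control-primed cells (-0.36 ± 0.18, adjusted p = 0.212). Its groups overlapped. Rpl34 was at -0.58 after quantile normalisation (adjusted p = 0.0551) and passed with cyclic loess (-0.66, adjusted p = 0.0382), the one member that did. Its other probe gave 0.22 between the same groups, and -0.07 after quantile normalisation. Rps6 was at -0.24, Rpl28 at -0.09, Rpl5 at -0.08 and Rpl22p at -0.06, none past the threshold. Rplp0, Rplp1, Rplp2 and Rpsa were at 0.36, 0.26, 0.42 and 0.40, and Rpl11, Rps3, Rps19, Rps2 and Rpl3 at 0.21, 0.30, 0.20, 0.34 and 0.34, without passing.

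The RAW264.7 change and the CT-26 change were compared in 1 fit over all 12 arrays. With 75th-percentile scaling the RAW264.7 change was lower for 46 of 81 genes, beside 31.4% of 27073 genes (23.9% lower and 7.44% higher), and higher for 0, with a median difference of -0.83 against -0.39 over all genes. The largest was Rpl38 at -1.35 ± 0.33 (SE; limma, adjusted p = 0.0123), followed by Rps25 at -1.19 and Rps3 at -1.18. The 2 Rps25 probes disagreed in sign in RAW264.7 cells, and this value is from the brighter one. On quantile-normalised values the median was -0.04 and only Rpl38 passed, at -0.57 (adjusted p = 0.0457), beside 24.6% of all genes (14.4% lower and 10.2% higher). With slide as a block, chosen after seeing the data, 1 gene passed, beside 8.80% of all genes. The count was 25 without knockdown RAW264.7 replicate 1 and 20 without replicate 3, beside 24.5% and 19.9% of all genes. It was 17 without knockdown-primed replicate 3 (20.1%), and 30, 27 and 21 without control-primed replicate 1, 2 or 3 (27.1%, 21.4% and 18.8%).

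**Figure D3:**
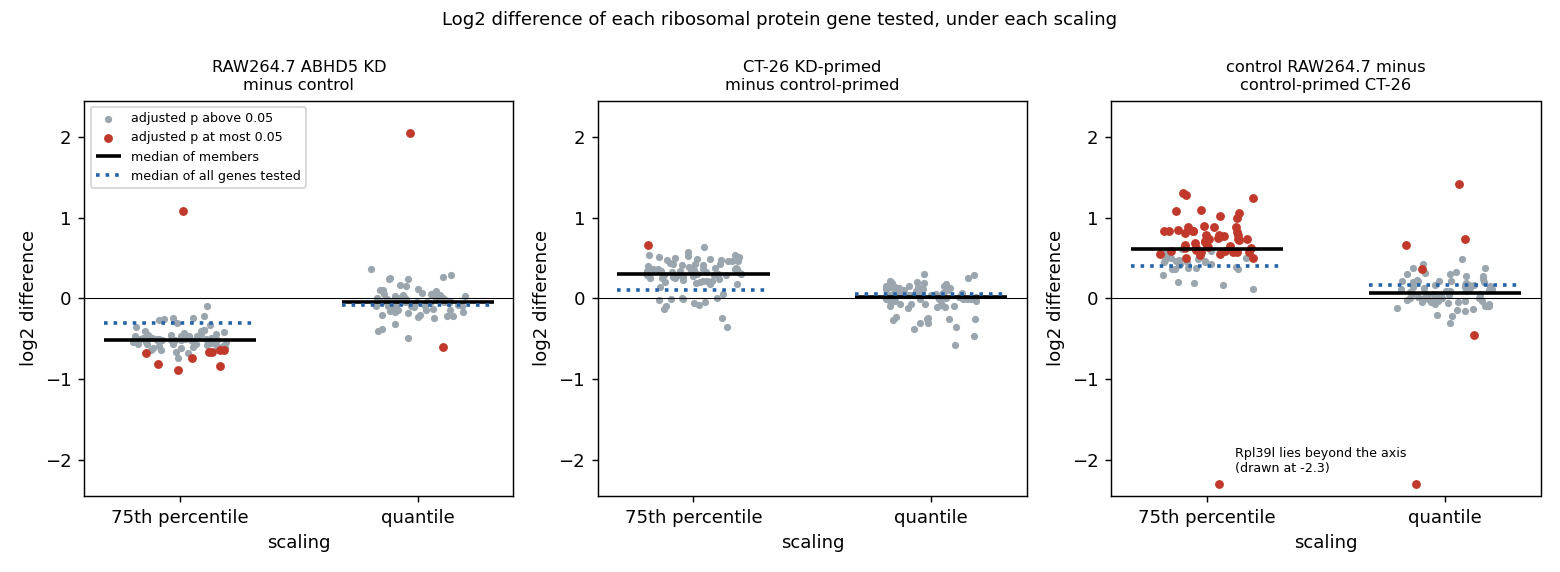
Log2 differences of the ribosomal protein genes in 3 comparisons (knockdown minus control RAW264.7 cells, knockdown-primed minus control-primed CT-26 cells, and control RAW264.7 minus control-primed CT-26 cells), 1 point per gene, under 75th-percentile scaling and after quantile normalisation. The medians are -0.51, 0.31 and 0.61 with the first scaling and -0.04, 0.02 and 0.07 with the second, and Rpl39l lies beyond the axis in the last comparison.

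Between the lines themselves, control RAW264.7 cells differed from control-primed CT-26 cells most in the copies and in Rpl22. These lines lay on different slides, so line, priming and slide cannot be told apart. With 75th-percentile scaling 51 of 80 genes were higher in control RAW264.7 cells and 1 lower, 52 in all, beside 42.2% and 25.3% of 25587 genes (67.6% in all). The median was 0.61, against 0.40 over all genes. With quantile-normalised values 4 were higher and 2 lower, beside 36.8% and 28.0% (64.7% in all), with a median of 0.07 against 0.17. With cyclic loess the median was -0.23, against 0.03 over all genes, and 3 were higher and 19 lower (22 in all, beside 62.8% of all genes), so the direction of the block as a whole turned with the scaling. Groups did not overlap for 70 genes higher and 1 lower (47.2% and 27.2% of all genes), and for 19 and 5 after quantile normalisation (40.5% and 30.9%). The count of 52 was 28 without control-primed replicate 1 and 30 without control-primed replicate 3, beside 58.8% and 55.8% of all genes.

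Rpl39l separated the lines. Its levels were -4.05, -6.28 and -7.04 in knockdown RAW264.7 cells, against -6.83, -6.72 and -8.84 in control RAW264.7 cells, where it was above background on 2 and 0 arrays. In CT-26 cells they were 4.41, 4.52 and 4.99 after priming by knockdown cells, against 4.35, 4.28 and 4.23 after priming by control cells, above background on all 6 arrays. Every CT-26 array was far above every RAW264.7 array. Rpl39l was at least 854-fold lower in control RAW264.7 than in control-primed CT-26 cells, a bound set by the dimmest signal called above background, and the limma adjusted p was 6.46e-07. The difference between the CT-26 groups was 0.35 ± 0.18 (adjusted p = 0.227). The gene entered the line test only through CT-26 cells.

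Rpl39, which sits in the exit tunnel where Rpl39l replaces it in male germ cells, had levels of 5.35, 5.89 and 5.75 in control RAW264.7 cells, against 4.89, 5.10 and 4.96 in control-primed CT-26 cells. The difference was 0.68 (limma, adjusted p = 0.0165), close to the members' median, and 0.06 after quantile normalisation. The Rpl39 and Rpl39l probes printed above share at most 4 bases in a row.

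Rps27l was higher in control RAW264.7 cells, at 5.88, 6.32 and 6.10, against 4.62, 4.92 and 4.82 in control-primed CT-26 cells (1.31 ± 0.19, limma adjusted p = 0.000538, and 0.73 after quantile normalisation, 0.00256). Its partner Rps27 differed by 0.63 and by 0.10 after quantile normalisation. Rpl10l was also higher, at -0.55, -0.46 and -0.61 in control RAW264.7 cells, against -2.17, -1.51 and -1.66 in control-primed CT-26 cells (1.24 ± 0.21, limma adjusted p = 0.00132, and 1.42 after quantile normalisation, 0.00127). Both held under median centring, quantile normalisation, cyclic loess, the normexp correction and slide as a random block. Rpl10 differed by 0.41 (adjusted p = 0.15).

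Rpl22, a large-subunit protein that T cells need and that has a paralogue in Rpl22l1, had levels of 5.59, 6.38 and 5.81 in control RAW264.7 cells, against 4.57, 4.75 and 4.59 in control-primed CT-26 cells (1.28 ± 0.23, limma adjusted p = 0.00171, and 0.66 after quantile normalisation, 0.00555). The groups did not overlap. This probe, at chr4:151706515-151706574, shares a long run with the probe of Rpl22p. The second Rpl22 probe, at chr4:151708012-151708071, gave -0.25 between the lines, and -1.51 between knockdown and control RAW264.7 cells (adjusted p over all probes = 0.00926), where the first gave -0.64. The 2 probes thus disagreed in both comparisons, and which transcripts each reads was not tested.

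**Figure D4:**
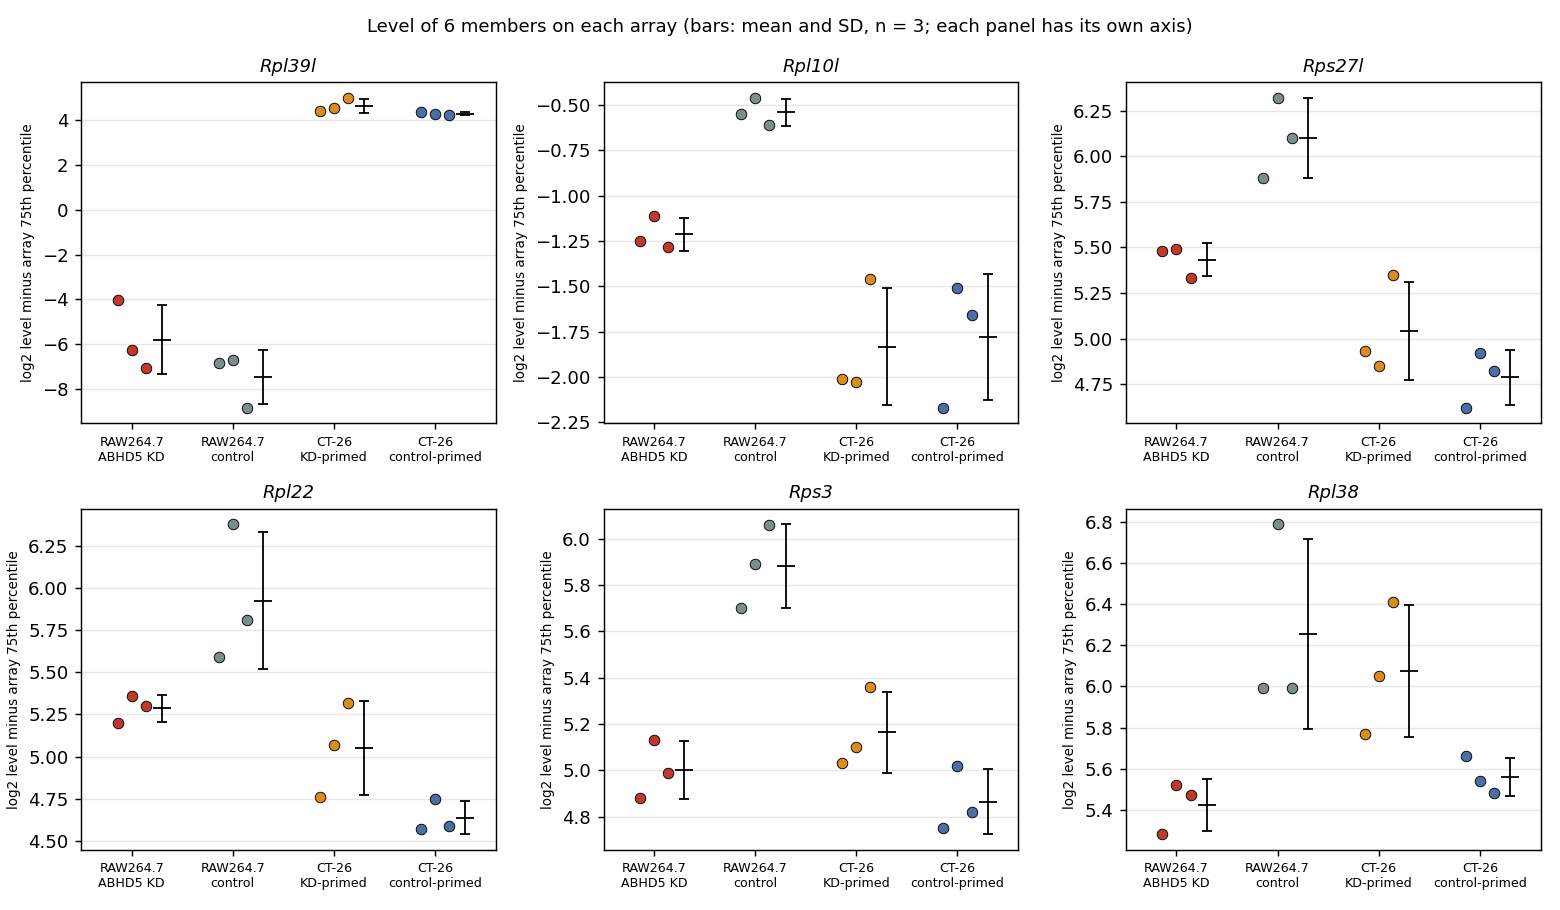
Log2 level (75th-percentile scaling) of Rpl39l, Rpl10l, Rps27l, Rpl22, Rps3 and Rpl38 on each of the 12 arrays, by group; each point is 1 array, and the bars are the group's mean and SD. Rpl39l lies at -4.05 or lower on all RAW264.7 arrays and at 4.23 or higher on all CT-26 arrays, and Rpl10l, Rps27l and Rpl22 are higher on all control RAW264.7 arrays than on all CT-26 arrays.

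Rps4x, an X-linked small-subunit gene, went the other way after quantile normalisation, at -0.45 (limma, adjusted p = 0.0161), against 0.12 (0.588) with 75th-percentile scaling. Its brighter probe maps to chromosome 3 and its other probe, on chromosome 5, gave 0.02 after quantile normalisation. Further genes higher in control RAW264.7 cells with 75th-percentile scaling were Rplp1 at 1.10, Rpl27 at 1.08, Rps19 at 1.06, Rps3 at 1.02, Rps6 at 0.88, Rps25 at 0.85, Rps2 at 0.83, Rpl21 at 0.81 and Rpl3 at 0.78 (adjusted p between 0.00157 and 0.0428). Of these, Rps25 alone also passed after quantile normalisation (0.37, adjusted p = 0.045), and with cyclic loess it was at -0.02.

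Probes of the same gene often read different parts of it. Among the 58 genes with more than 1 probe, the median spread of the log2 difference between probes was 0.15 in the RAW264.7 comparison, 0.25 in the CT-26 comparison and 0.29 between the lines. It was over 1 for 2 genes in the RAW264.7 comparison. Rpsa gave -0.87, -0.58, 0.56 and -0.59 on its 4 probes, and Rps25 gave -0.67 and 0.36. In the CT-26 comparison it was over 1 for Rpsa and Rps15a. Between the lines it was over 1 for 11 genes, among them Rpl15, Rpl21, Rpl22, Rpl27a, Rps15a, Rps24, Rps25, Rps27a, Rps3 and Rps6. The Rpl15 probes gave 0.58 and -1.52, and the Rps15a probes 0.54, 0.70 and -2.42. For Rps27a, a probe at chr11:29447939-29447998 gave 2.32, where the brighter one gave 0.75.

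Probe sequence also limits what a signal stands for. Of the 185 probes, 47 share at least 30 bases in a row with a probe filed under another gene name, among them the chosen probes of 17 of the 81 genes. A further limit is position: 24 probes map to another chromosome than RefSeq gives for the gene. The signals of such probes cannot be assigned to 1 copy. Counted by probe, 16 of 181 were lower in knockdown RAW264.7 cells and 0 higher, beside 13.1% and 7.90% of all probes.

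Genes that work with the ribosome were set beside the members from lists drawn up by function. Of 33 tested translation factors, 5 were lower in knockdown RAW264.7 cells, a share close to the 14.8% of all genes (Eif3i at -0.81, Eif3g at -0.73, Eef1g at -0.69, Eif3d at -0.68 and Eif3k at -0.57), with a list median of -0.46, and 0 passed after quantile normalisation (2 at an unadjusted p under 0.05, limma). In CT-26 cells 0 of 34 passed (6 at an unadjusted p under 0.05). Fau and Rack1, whose products join the ribosome but fall outside the name rule, were close to the members in knockdown RAW264.7 cells, at -0.69 and -0.54, neither past the threshold. The paralogues Rpl22l1, Rpl36al and Rpl7l1 were at -0.29, -0.55 and 0.03 in knockdown RAW264.7 cells.

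Ribosome assembly genes had calls under both scalings. Of 40 tested, 12 were lower in knockdown RAW264.7 cells (14.8% of all genes were), with 5 after quantile normalisation (7.34%), and the list median was -0.45 and -0.17. They include nucleolin (Ncl, adjusted p = 0.0168 in limma), the small-subunit endonuclease Nob1 (-0.94), Nop16 (-0.86), nucleostemin (Gnl3, -0.83) and fibrillarin (Fbl, -0.75). In knockdown-primed CT-26 cells 7 of 40 were higher (3.15% of all genes were), with 5 after quantile normalisation (2.58%), among them Rrp9 at 1.04, Grwd1 at 1.02, Dkc1 at 0.96 and Bysl at 0.81. The list median there was 0.44, and 0.26 after quantile normalisation. Of 17 tested genes of mTORC1 and TOP control, 1 was lower in knockdown RAW264.7 cells, the mTOR inhibitor Deptor at -0.73, and 0 passed in CT-26 cells (4 at an unadjusted p under 0.05). Myc, a transcription factor that drives ribosome genes, rose by 2.82 ± 0.30 in knockdown RAW264.7 cells (limma, adjusted p = 0.000555). With 75th-percentile scaling the members' median had the opposite sign, and the part of Myc in their differences was not tested.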

How the data were processed

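Per the labels, TRIzol extracts were amplified linearly and a Cy3 dye was built in. Per the file headers, Agilent Feature Extraction 10.7.3.1 produced the deposited intensity of each spot on these 1-colour arrays, corrected for background but not scaled between arrays, with probe positions on mm9. Control spots (3671 per array) and outlier spots (172 to 272) were left out. Signals were put on the log2 scale and the array's 75th percentile was subtracted. The brightest probe well above background on 3 arrays of a group stood for its gene, and a gene was tested where this held in either group compared. The test was the moderated one of limma 3.58.1 (R 4.3.3), two-sided, over all 27073 such genes or those tested in the comparison, with Benjamini-Hochberg adjustment over all genes tested and a threshold of 0.05. Differences are knockdown minus control, knockdown-primed minus control-primed, and control RAW264.7 minus control-primed CT-26. The fit was tested on simulated data. The members, the gene lists and the alternatives were chosen with earlier results of these data known.

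Named genes were, per comparison, the 6 largest differences in each direction, every member past the threshold after quantile normalisation, a fixed list of members with known roles, and genes whose probes differed by over 1. Gene names came from RefSeq by accession for 26762 probes and by symbol for 3819, and 25100 kept the name in the files. A few single genes are not reported here, though they enter the counts and medians. Rpl13a and Rpl28 each lacked 1 knockdown value. Samples were not paired by replicate number in the main fits. Deviations of same-numbered arrays correlated at -0.29 to 0.06, both ends between control RAW264.7 and control-primed CT-26 arrays. With 3 arrays a group, these values cannot settle whether samples were paired. Precision is limited by the number of arrays. Single spot intensities carry no count, so no counting interval applies.

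A deposited table of values was used only as an alternative. Its 6 RAW264.7 columns held log2 values as deposited by the authors, each matching its own scanner file, with medians of -4.01, -3.94 and -3.93 in knockdown and -3.81, -3.53 and -3.90 in control columns. The CT-26 columns, also 6, were deposited on a linear intensity scale, with medians of 227.4, 132.4 and 174.8 in knockdown-primed and 274.3, 277.3 and 275.9 in control-primed columns, and 5 of these 6 matched another replicate of the same group. Whether those values were centred was not given in the sources used here.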

Additional observations from a re-analysis of the deposited data

Results flagged for a closer look

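The change of 46 of 81 ribosomal protein genes differed between the lines, by the interaction term of the limma fit over all 12 arrays with 75th-percentile scaling. Over all 27073 genes tested, 31.4% did. Each of the 46 was lower in the RAW264.7 comparison than in the CT-26 comparison, beside 23.9% of all genes. Of the genes named by rule, the log2 difference of changes (RAW264.7 minus CT-26) was -1.18 for Rps3, -1.14 for Rps2, -1.19 for Rps25, -0.94 for Rps27 and -0.92 for Rps27l in the small subunit, and -0.99 for Rpsa. In the large subunit it was -1.35 for Rpl38, -1.17 for Rpl27a, -1.16 for Rpl37a, -1.05 for Rpl22, -0.98 for Rpl3, -0.97 for Rplp2, -0.89 for Rplp0 and -0.88 for Rpl10. After quantile normalisation, 1 of the 81 genes passed (Rpl38), beside 24.6% of all genes. The 75th percentile stood higher on knockdown than control RAW264.7 arrays and lower on knockdown-primed than control-primed CT-26 arrays, and its part in the count was not tested.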

How the results depend on the processing

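The RAW264.7 count of 10 became 0 with median centring, 2 with quantile normalisation, 2 with cyclic loess, 1 with no filter on dim probes, 16 with every probe, 6 with the replicate block, 31 with all 12 arrays in the fit, 0 with slide as a block and 1 within slide 2, and ran from 0 to 12 with 1 array left out. Its median of -0.51 became -0.27 with median centring, -0.04 with quantile normalisation and -0.09 with cyclic loess (-0.63 to -0.38 with 1 array left out). The CT-26 count of 1 (6.37% of all genes) became 2 with the normexp correction (7.22%). It was 0 with quantile normalisation (5.26%), no filter (0.117%) and the mean of a gene's probes (6.85%). With the replicate block (3.61%), the deposited table (5.91%) and all 12 arrays in the fit (4.125%) it was also 0. With 1 array left out it was 0 to 6 (0.376% to 12.01%). Its median of 0.31 became 0.02 with quantile normalisation and 0.02 with cyclic loess (0.15 without knockdown-primed replicate 3, to 0.45). The difference of changes, 46 genes (31.4% of all genes), became 26 with median centring (24.2%), 1 with quantile normalisation (24.6%) and 1 with cyclic loess (21.4%). It was 77 of 184 with every probe (27.4% of all probes) and 1 with slide as a block, chosen after seeing the data (8.80%). With 1 array left out it was 17 to 55 (18.8% to 37.6%). Its median of -0.83 became -0.04 with quantile normalisation and -0.11 with cyclic loess (-0.97 to -0.64 with 1 array left out). Between the lines, 52 (67.6% of all genes) became 6 with quantile normalisation (64.7%) and 22 with cyclic loess (62.8%). With every probe it was 121 of 182, beside 66.6% of all probes. Leaving out 1 array gave 28 to 60 (55.8% to 69.1%). The median of 0.61 became 0.07 with quantile normalisation and, reversed, -0.23 with cyclic loess (0.46 to 0.71 with 1 array left out). With the replicate block, the difference of changes had 34 genes (22.7% of all genes) and the lines 39 (61.9%), and the medians kept their values. Whether replicate numbers paired samples could not be settled.

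Single genes between the lines also turned. With quantile normalisation Rps4x was at -0.45, Rpl13a at -0.01, Rps15a at -0.04, Rps24 at -0.07, Rplp0 at -0.03 and Rpl10 at -0.09. With cyclic loess Rps4x was at -0.72, Rps25 at -0.02, Rplp0 at -0.55, Rplp2 at -0.25, Rpsa at -0.46, Rpl5 at -0.07, Rpl11 at -0.34, Rpl13a at -0.30, Rps27a at -0.05, Rps2 at -0.00, Rpl10 at -0.46, Rpl39 at -0.14, Rps27 at -0.23, Rpl27a at -0.09, Rps15a at -0.30, Rpl15 at -0.32 and Rps24 at -0.34. With the mean of a gene's probes Rps15a was at -0.40, Rpl21 at -0.38 and Rpl15 at -0.47. No named gene past the threshold turned its sign in the RAW264.7 comparison, the CT-26 comparison or the difference of changes. With 3 arrays a group, small differences could not be called. The cause of these changes was not tested.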
